A study of Mus with 6 samples.

Results

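A set of 10 genes of fat cells and of the hormones they secrete was followed in pancreatic tumors, and all 10 were listed among the 15646 genes of the count table. They are Plin1, which coats the lipid droplet of adipocytes, the adipokines Adipoq, Lep, Cfd and C1qtnf3, the fatty acid handling genes Fabp4, Cd36 and Lpl, the transcription factor Pparg, and the leptin receptor Lepr. They were read by gene ID. They had been chosen by their known roles and, in part, selected on their counts in obese against lean hosts, since earlier results of the same comparison were in view. The values below that set obese against lean hosts are therefore a description of the 10 genes, and whether a gene passed the test is given without further weight.

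The tumors grew from KPC1199 cells, a line of mouse pancreatic ductal adenocarcinoma, placed in the pancreas of the host. Host mice were either ob/ob, a genotype without working leptin that leads to obesity, or lean and wild-type (WT). There were 3 libraries of total RNA, depleted of ribosomal RNA, from tumors of obese mice (obese 1, 3 and 4) and 3 from tumors of lean mice (lean 1, 2 and 3). No label calls a library lean: these 3 have titles starting with ND, and were taken as the lean WT group because the design text names no other kind of host. The sources used here give no age, sex, diet or background strain of the hosts and do not state that each library came from a separate mouse, so the spread between libraries may be partly technical. All tumors derive from a single cell line, and the RNA holds both tumor cells and host tissue.

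White adipocytes store triglyceride in a single large droplet. Perilipin 1, the product of Plin1, covers that droplet and controls the access of lipases to it. Pparg is the nuclear receptor that drives adipocyte differentiation, and Plin1, Adipoq, Fabp4, Cd36 and Lpl are among its known targets. Leptin, the product of Lep, reports fat stores to the brain through the receptor encoded by Lepr. Plin1, Adipoq and Lep are largely restricted to adipocytes, whereas Fabp4 and Cd36 are also made by macrophages and capillary endothelium, Lpl by macrophages and muscle, and Pparg by macrophages and epithelia.

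Libraries held 7122533 to 8521244 counts, which puts the floor of 3 counts at 0.351 to 0.425 CPM per library (CPM, counts scaled to library size). On principal components of all genes tested, the first component (54.1% of the variance) separated obese from lean libraries, and the second (15%) put obese 3 at -37.7 and all others at -6.45 to 17.5. Values without obese 3 are given wherever a result rests on it. Over all 14348 genes that passed a filter on low counts, 2991 passed the test of obese against lean hosts (20.8%; edgeR quasi-likelihood test, Benjamini-Hochberg adjusted p under 0.05), 1474 of them higher (10.3%) and 1517 lower (10.6%) in obese hosts. With total counts as the only scaling, 1797 of 2967 such genes were higher. Of the 10 genes, 8 passed the filter; 4 of the 8 rose in obese hosts (Plin1, Adipoq, Fabp4 and Cd36), 1 fell (C1qtnf3) and 3 did not pass the test (Pparg, Lpl and Lepr). Plin1, Adipoq and C1qtnf3 passed the filter through the group in which they were higher alone. Lep and Cfd each reached 10 counts in only 2 libraries and were not tested. Among the 8 genes tested, the obese libraries lay wholly above the lean ones for 4, and wholly below them for 1. Lep and Cfd, not tested, overlapped between hosts. Over all genes tested, these shares were 20.3% and 20.0%, or 40.3% in either direction. The median log2 fold change of the 8 genes was 0.78, and that of all genes tested was 0.01. Putting the lean group of Plin1 at the floor of 3 counts (log2 4.75) could not change this median, since Plin1 still had the highest value of the 8. The 5 scarce genes of the set are Plin1 and the 4 adipokines, each under 6 CPM in all 6 libraries; the other 5 lay between 7.83 and 122 CPM.

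**Figure D1:**
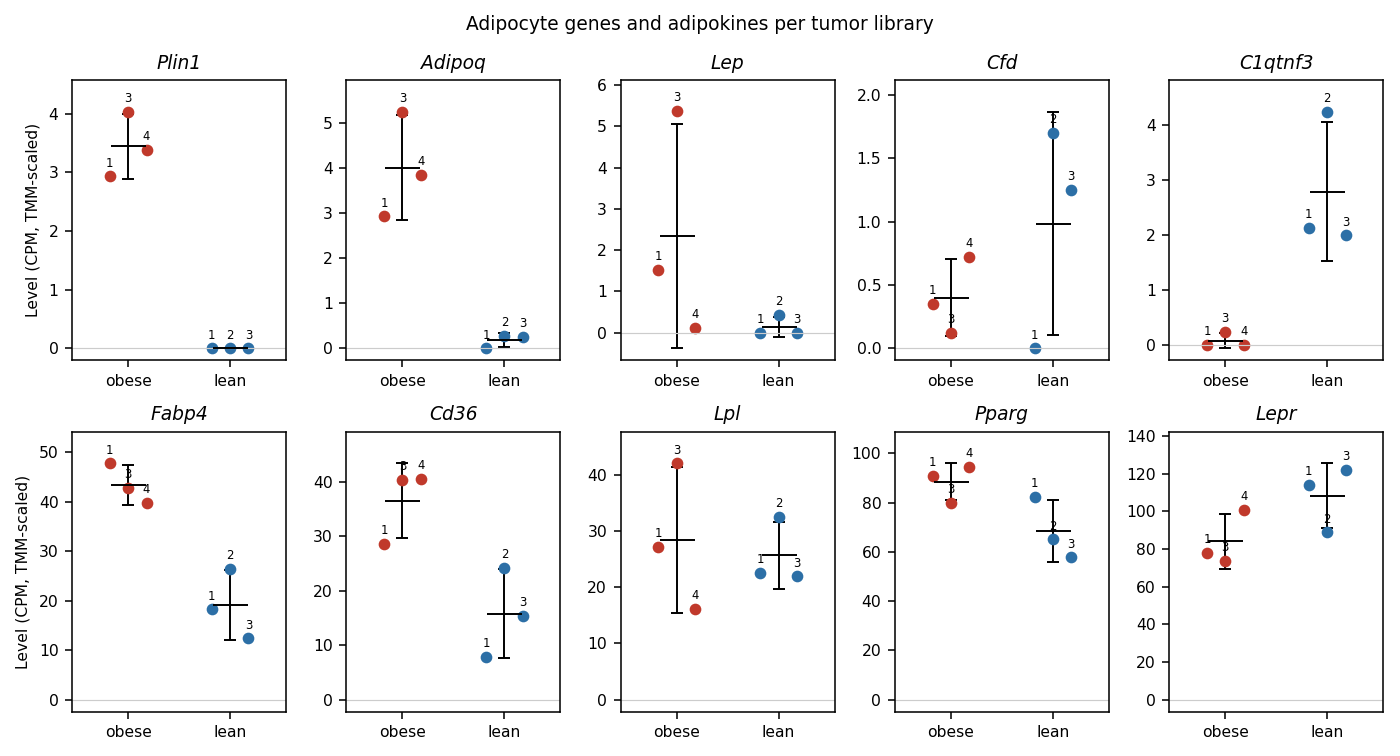
Level of each gene in CPM per library (y axis, linear, a scale of its own per panel), obese libraries in red on the left and lean libraries in blue on the right, numbered as in the text, with the mean and SD (n = 3) in black. Plin1 and Adipoq are at 2.93 CPM or more in the obese libraries and at 0.284 CPM or less in the lean ones, C1qtnf3 shows the opposite order, and Lep, Cfd, Lpl, Pparg and Lepr overlap between hosts.

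Plin1 (ENSMUSG00000030546.14, chromosome 7, 79721164 to 79732904, RefSeq on GRCm38.p6), the defining gene of the adipocyte lipid droplet, was counted in tumors of obese mice only. It had 25, 33 and 28 counts in obese 1, 3 and 4, against 0 counts in lean 1, 2 and 3. Its level was 3.45 ± 0.555 CPM in obese libraries (SD, n = 3). This was 26.9-fold the lean level when the lean group is put at its floor of 3 counts over the group, 0.128 CPM. That ratio leaves out counting error. The 95% counting interval of the ratio of summed counts began lower, at 21.4, and had no upper limit. The 3 obese libraries lay close together. Their variance was 0.748 times what counting alone would give, where a value of 1 means counting error and nothing more. Plin1 was thus the most even of the 10 genes among obese hosts relative to its counting error.

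Adipoq (ENSMUSG00000022878.5, chromosome 16, 23146536 to 23157968) encodes adiponectin, an abundant secreted adipocyte hormone that promotes insulin sensitivity. It had 25, 43 and 32 counts in obese 1, 3 and 4, against 0, 2 and 2 counts in lean 1, 2 and 3. Every obese library was above every lean one, and obese 3 was the highest. The level was 4.01 ± 1.17 CPM in obese and 0.178 ± 0.155 CPM in lean libraries (SD, n = 3 each). The ratio of summed counts per library size was 23.5 (95% counting interval 8.89 to 87.8). The fitted log2 fold change was 4.43 (SE 0.65), and it was 4.19 without obese 3 and 3.84 without lean 1, the library with no count. Of all genes tested, 5 had a higher fitted log2 fold change than Adipoq.

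Plin1 and Adipoq kept nearly the same proportion to each other in the 3 obese libraries. Plin1 made up 50.0% of the counts of the pair in obese 1 (exact 95% binomial interval 35.5 to 64.5), 43.4% in obese 3 (32.1 to 55.3) and 46.7% in obese 4 (33.7 to 60.0). These intervals overlap throughout. In lean libraries the pair had 4 counts in all, each of Adipoq. Here and below, intervals cover counting error only. In bulk RNA, more adipocytes and more RNA of these genes per cell cannot be told apart.

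Leptin itself behaved differently from library to library. Lep (ENSMUSG00000059201.12, chromosome 6, 29060221 to 29073876) had 13, 44 and 1 counts in obese 1, 3 and 4, against 0, 3 and 0 counts in lean 1, 2 and 3. Obese 3 was far above the rest, and obese 4 lay below lean 2, so the groups overlapped. The level was 2.34 ± 2.72 CPM in obese and 0.142 ± 0.246 CPM in lean libraries (SD, n = 3 each). The ratio of summed counts was 18.1 (counting interval 5.91 to 90.6), which leaves out the spread between libraries. The difference of mean levels, 2.20 CPM, was 0.675 CPM without obese 3 and 3.30 CPM without obese 4. With 1 library left out, Lep passed the filter in 4 of the 6 fits and the test in 1 of them, without obese 4 (log2 4.57, SE 1.02). The variance among obese libraries was 26.3 times that of counting alone.

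The labels do not name the molecular change in the ob allele of these hosts. As background, the classical ob allele is a point mutation that stops translation early while the transcript is still made, and Lep mRNA is known to be raised in adipose tissue of ob/ob mice. Counts of Lep over the whole gene therefore do not check the genotype.

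Set against adiponectin within the same library, leptin varied beyond counting error. Lep made up 34.2% of the Lep and Adipoq counts in obese 1 (interval 19.6 to 51.4), 50.6% in obese 3 (39.6 to 61.5) and 3.03% in obese 4 (0.0767 to 15.8). The interval of obese 4 lies below those of obese 1 and obese 3. Plin1 and Adipoq had 28 and 32 counts in obese 4, against 25 counts each in obese 1. The reason for the low Lep count of obese 4 was not tested.

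Cfd (ENSMUSG00000061780.6, chromosome 10, 79890853 to 79892655) encodes adipsin, the serine protease complement factor D, which adipocytes secrete in large amounts and whose mRNA is known to be low in adipose tissue of ob/ob mice. It had 3, 1 and 6 counts in obese 1, 3 and 4, against 0, 12 and 10 counts in lean 1, 2 and 3. Every obese library was below lean 2 and lean 3, but lean 1 had no count, so the groups overlapped. The level was 0.399 ± 0.303 CPM in obese and 0.984 ± 0.881 CPM in lean libraries (SD, n = 3 each). The difference of means, -0.585 CPM, was -0.228 CPM without lean 2 and -1.08 CPM without lean 1.

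Beside Adipoq, Cfd made up 10.7% (interval 2.27 to 28.2), 2.27% (0.0575 to 12) and 15.8% (6.02 to 31.3) of the Cfd and Adipoq counts in obese 1, 3 and 4. It made up 85.7% (57.2 to 98.2) in lean 2 and 83.3% (51.6 to 97.9) in lean 3, and lean 1 had no count of either gene. The intervals of the 3 obese libraries overlap. Between hosts the share carries the difference in Adipoq, which had 100 counts in the obese and 4 in the lean libraries, so it does not show a difference in Cfd itself.

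**Figure D2:**
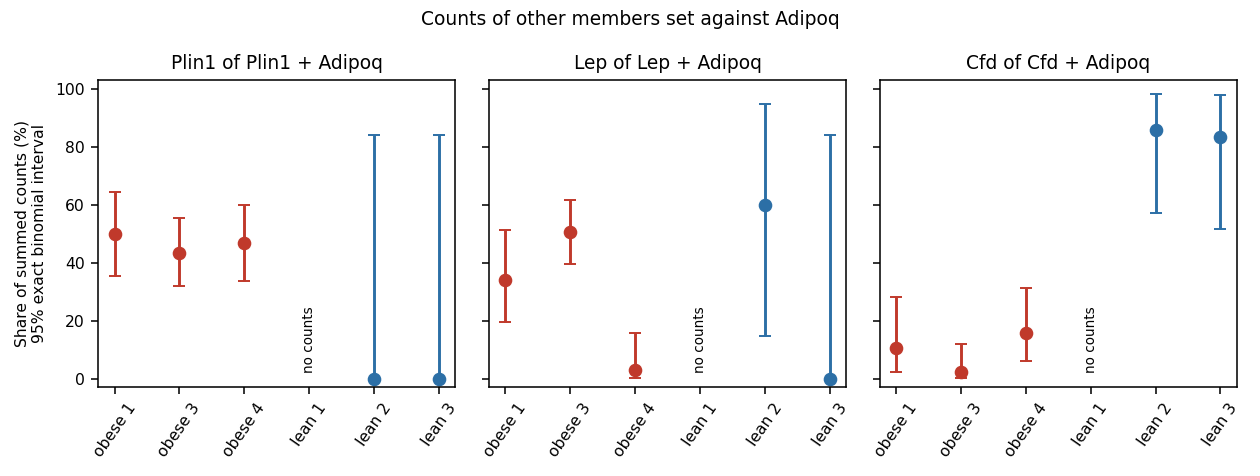
Share of counts (y axis, percent) that Plin1, Lep or Cfd takes of its own counts plus those of Adipoq in each library (x axis, obese in red, lean in blue), with exact 95% binomial intervals as bars. The Plin1 share is 43.4% to 50.0% in the obese libraries, the Lep share drops to 3.03% in obese 4, and the Cfd share, 15.8% or less in the obese libraries and 83.3% or more in lean 2 and lean 3, carries the difference in Adipoq counts between hosts.

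C1qtnf3 (ENSMUSG00000058914.12, chromosome 15, 10952119 to 10980162), a secreted paralog of adiponectin with a C1q-like domain, known from adipocytes and also from cartilage and fibroblasts, went the other way from Adipoq. It had 0, 2 and 0 counts in obese 1, 3 and 4, against 18, 30 and 16 counts in lean 1, 2 and 3. All obese libraries were below all lean ones, and the only obese counts were in obese 3. The level was 0.0815 ± 0.141 CPM in obese and 2.80 ± 1.26 CPM in lean libraries (SD, n = 3 each), and the fit gave a log2 fold change of -4.87 (SE 0.84). The 2 obese counts against 64 lean counts correspond to a lean over obese ratio of 34.1 (counting interval 9.06 to 288). Without obese 3 the obese group had no count, and the fitted value of -7.49 then depends on the prior count. Of all genes tested, 2 had a lower fitted log2 fold change. Spans of 2 long noncoding genes, Gm34315 and Gm52174, overlap that of C1qtnf3 in RefSeq. Shared exons were not checked and strand handling is not given, so whether any of their reads were counted for C1qtnf3 is not known.

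Among the fatty acid handling genes, Fabp4 and Cd36 rose in obese hosts while Lpl did not pass the test. Fabp4 (ENSMUSG00000062515.3, chromosome 3, 10204342 to 10208616) encodes the cytosolic fatty acid binding protein aP2. It had 47.8, 42.9 and 39.8 CPM in obese 1, 3 and 4, against 18.3, 26.5 and 12.4 CPM in lean 1, 2 and 3. The groups did not overlap, and the obese libraries were the closer to each other. The log2 fold change was 1.20 (SE 0.23), or 2.29-fold, and it ranged from 0.96 to 1.50 with 1 library left out, past the threshold each time.

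Cd36 (ENSMUSG00000002944.15, chromosome 5, 17781690 to 17888959) encodes the membrane transporter that brings long-chain fatty acids into the cell. Its level was 28.6, 40.4 and 40.6 CPM in obese 1, 3 and 4, against 7.83, 24.2 and 15.4 CPM in lean 1, 2 and 3. The lowest obese library was above the highest lean one, by less than the spread within either group. Obese hosts were 2.33-fold higher in the fit (log2 1.22, SE 0.32). The difference no longer passed the threshold without obese 4 (log2 1.13) or without lean 3 (log2 1.20), nor in a robust edgeR fit (log2 1.22). Of all genes tested, 414 had a higher fitted log2 fold change than Cd36, and 436 than Fabp4.

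Lpl (ENSMUSG00000015568.16, chromosome 8, 68880555 to 68906932) encodes the enzyme that releases fatty acids from circulating lipoproteins at the capillary wall. Its level was 27.1, 42.0 and 16.2 CPM in obese 1, 3 and 4, against 22.6, 32.5 and 21.9 CPM in lean 1, 2 and 3. Obese tumors held both the highest and the lowest value of all 6 libraries. The log2 fold change of 0.15 (SE 0.29) did not pass the test, and its sign turned without obese 3 (log2 -0.24, SE 0.25). Among obese libraries Lpl had the same order as Lep, highest in obese 3 and lowest in obese 4, and its variance there was 49.1 times that of counting alone, the highest of the 10 genes.

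Pparg (ENSMUSG00000000440.12, chromosome 6, 115360879 to 115490404) was well expressed in tumors of both hosts. It had 90.9, 80.0 and 94.4 CPM in obese 1, 3 and 4, against 82.4, 65.1 and 57.8 CPM in lean 1, 2 and 3. Obese 3 lay below lean 1, so the groups overlapped. With all libraries the log2 fold change of 0.37 (SE 0.14) did not pass the test, and it passed without lean 1 (log2 0.52, SE 0.13). The counts are per gene, so the adipocyte-typical and the widely expressed isoform of Pparg were not separated.

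Lepr (ENSMUSG00000057722.17, chromosome 4, 101717137 to 101815352), the receptor for leptin, was also present throughout. Its level was 77.9, 73.6 and 101 CPM in obese 1, 3 and 4, against 114, 88.9 and 122 CPM in lean 1, 2 and 3. Obese 4 was above lean 2, so the groups overlapped. The log2 fold change of -0.36 (SE 0.15) did not pass the test with all libraries. Long and short receptor isoforms were counted together.

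**Figure D3:**
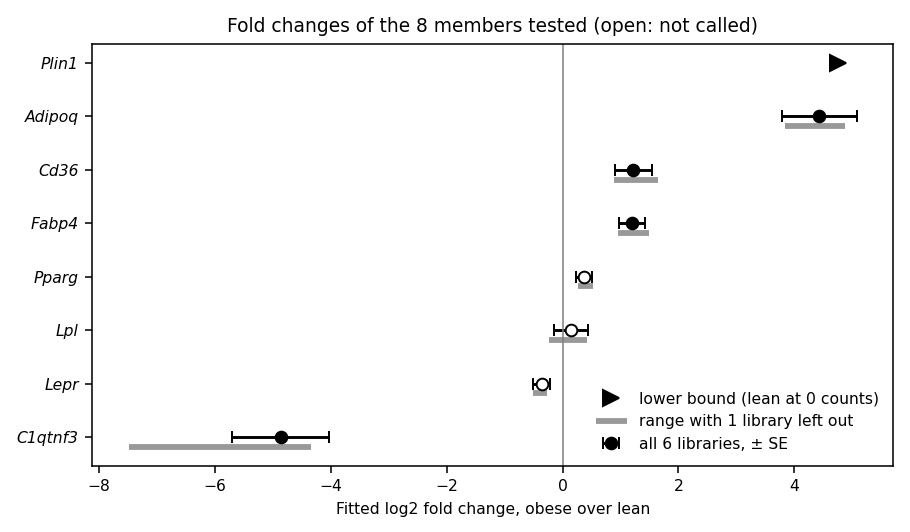
Fitted log2 fold change, obese over lean (x axis), of the 8 genes that passed the filter, with SE bars. Filled points passed the adjusted threshold, open points did not, and grey bars give the range with 1 library left out. The Plin1 triangle, drawn as a lower bound, puts the lean group at its floor of 3 counts and leaves out counting error. With counting error included, the ratio could be lower. Adipoq, Cd36 and Fabp4 lie to the right of 0, C1qtnf3 lies to the left at -4.87, and the grey bar of Lpl crosses 0; the far end of the C1qtnf3 bar, -7.49, is the value without obese 3, when the obese group has no count.

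Within each host the genes did not share a single order of libraries. Among obese libraries, obese 3 was the highest for 5 of the 10 genes (Plin1, Adipoq, Lep, Lpl and C1qtnf3), obese 4 for 4 (Cfd, Pparg, Cd36 and Lepr) and obese 1 for Fabp4. Among lean libraries, lean 2 was the highest for 7 of the 9 genes with a count there, among them Adipoq, for which lean 2 and lean 3 had 2 counts each. The exceptions were Pparg, highest in lean 1, and Lepr, highest in lean 3. Lean 2 was thus the lean library with the most Fabp4, Cd36, Lpl, Cfd and C1qtnf3, and the only one with a Lep count.

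The spread between libraries also differed among the genes. The biological coefficient of variation, the part of the spread beyond counting, was 13.2% for Pparg and 14.1% for Lepr, below the median of 16.0% over all genes tested. It was 19.7% for Fabp4, 25.4% for Lpl, 26.4% for Plin1, 27.0% for Cd36, 29.5% for Adipoq and 34.5% for C1qtnf3, all above that median. These estimates lean on a trend shared by genes of like abundance. That of Plin1 is not a spread seen in its own counts. Its variance among obese libraries was 0.748 times that of counting alone, and its lean libraries had no count.

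**Figure D4:**
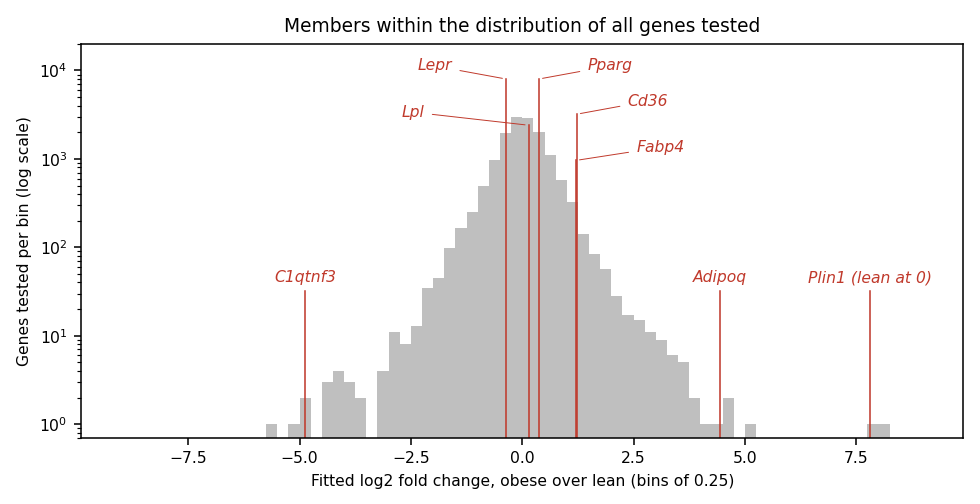
Number of genes per bin of fitted log2 fold change, obese over lean (grey bars, logarithmic y axis), for the 14348 genes tested, with the 8 tested members as red lines. Plin1, whose fitted value depends on the prior count because no lean library had a count, and Adipoq stand in the right tail, C1qtnf3 stands in the left tail, and Pparg, Lpl and Lepr stand in the bulk near 0.

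Genes outside the set with a pattern like that of Adipoq were sought by Pearson correlation of log2 CPM over the 6 libraries, among the 14667 genes that averaged 1 CPM or more. The closest was ENSMUSG00000066682.11, at 13.6, 14.9 and 14.2 CPM in obese 1, 3 and 4, against 4.86, 6.66 and 6.13 CPM in lean 1, 2 and 3 (likeness 0.997). The next was ENSMUSG00000021607.9, at 10.4, 12 and 10.6 CPM in obese 1, 3 and 4, against 6.64, 7.23 and 7.38 CPM in lean 1, 2 and 3 (likeness 0.994). The first passed the test (log2 1.28, SE 0.21) and the second did not (log2 0.63, SE 0.21), against a log2 fold change of 4.43 for Adipoq. Likeness thus follows the pattern over libraries and not the size of the difference. A likeness above 0.9 was reached by 624 genes; over 6 libraries that fall into 2 groups, it cannot be told apart from the difference between hosts, and both genes were chosen for it. No symbol could be attached to either gene.

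Fabp4, Cd36, Lpl and Pparg, which other cell types also make, were counted in all 6 libraries, also where Plin1 and Adipoq were at or near 0. C1qtnf3, known also from cartilage and fibroblasts, had no count in obese 1 and obese 4. In the obese libraries Fabp4, Cd36, Lpl and Pparg lay between 16.2 and 94.4 CPM, with Plin1 and Adipoq at 25 to 43 counts. Lep had 13, 44 and 1 counts in obese 1, 3 and 4, and Cfd had 3, 1 and 6. In the lean libraries Fabp4, Cd36, Lpl and Pparg lay between 7.83 and 82.4 CPM. There Plin1 was at 0 counts, Adipoq at 2 or fewer and Lep at 3 or fewer. Cfd had 0, 12 and 10 counts in lean 1, 2 and 3. Markers of macrophages, endothelium, fibroblasts and other cells could not be looked up without symbols, and their part in the levels of Fabp4, Cd36, Lpl and Pparg was not tested.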

How the data were processed

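The authors deposited raw counts per gene for 6 libraries, listed by versioned Ensembl ID; 0 columns were left unmapped. CASAVA, STAR, Subread and the build GRCm38 are named, per the submitters' processing notes, without versions, settings or strand handling. Scarce genes are absent from the table, by a rule that is also not given in the sources used here. Titles starting with OB were taken as obese; those starting with ND were inferred to be the lean WT group, the only other host in the design text.

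Counts went into edgeR 4.0.16 (R 4.3.3): expression filter (minimum count 10, minimum total 15), TMM factors, two-sided quasi-likelihood F test without covariates, Benjamini-Hochberg adjustment over all genes tested. Each SE was the log2 fold change over the root of its F. Log2 CPM, used for principal components and correlations, had a prior count of 2. The fitted log2 fold changes did not use that value but the default prior count of the edgeR fit. The fit was tested on simulated data. Alternatives were DESeq2 1.42.0, limma-voom in limma 3.58.1, a robust edgeR fit, a replicate block, RLE factors, upper-quartile factors or none, no filter or a filter at 1 CPM in 3 libraries, and each library left out in turn.

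The 10 genes and all lists were chosen with earlier results of these data known. All 10 were named whatever their values, with the 2 other genes most like Adipoq. Symbols of the 10 came with their IDs and matched RefSeq (GRCm38.p6), which gave the coordinates. It pairs 0 of the listed IDs with a symbol, so 15 further lists of pathway and cell type genes could not be looked up, and no sequence is shown.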

Additional observations from a re-analysis of the deposited data

How the results depend on the processing

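Of the 10 genes, 8 were tested with all libraries and 5 passed the threshold. With 1 library left out, 8 to 10 were tested and 4 to 6 passed. Over all genes tested, 2991 of 14348 (20.8%) passed with all libraries. With 1 library left out, this ranged from 1179 of 14748 without lean 2 to 3066 of 14720 without obese 3. The count over all genes was 1461 without obese 1, 1956 without obese 4, 1179 without lean 2 and 1541 without lean 3. Plin1, Adipoq, Fabp4 and C1qtnf3 kept direction and call in all 15 alternatives each. Cd36 lost its call in 3 of them, the robust fit and the fits without obese 4 or lean 3. All alternatives reuse the same libraries, and the genes were in part selected on this comparison, so a kept call is no independent support. Plin1, Adipoq and C1qtnf3 also passed the filter with all libraries through the group in which they were higher alone. With 1 library left out, the log2 fold change of Lpl ranged from -0.24 without obese 3, a reversed sign, to 0.43 without obese 4 (0.60 with the replicate block, not passing the test), and that of Pparg passed the threshold without lean 1 (0.52). The cause was not tested. Replicate numbers 1 and 3 occur in both groups. The deviations of their libraries correlated at 0.090 and 0.074, against -0.131 to 0.066 for unlike numbers. Deviations from the mean of 3 libraries are bound to each other, so these values cannot decide whether like numbers mark a pair. With the replicate block, 2087 of 14348 genes tested were called, and 6 of the 8 members tested, the sixth being Lepr (log2 -0.63). Obese 4 and lean 2 have a number of their own, so in that fit the difference rests on obese 1, obese 3, lean 1 and lean 3. Without a filter, Lep and Cfd were tested as well, and neither passed. With 1 library left out, Lep was tested in 4 fits and passed without obese 4 (log2 4.57), and Cfd was tested in 2 and passed in none. Depth limits the scarce genes: a group floor of 3 counts is 0.120 CPM in the obese and 0.128 CPM in the lean libraries.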
